A study of Saccharomyces cerevisiae with 4 samples.

Results

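The nuclear tRNA genes of budding yeast whose anticodon starts with adenine were examined. They were taken from the deposited expression table as the rows off the mitochondrial chromosome whose identifier names a tRNA with an anticodon beginning with A. This gave 68 of the 7130 rows, and 68 of the 275 nuclear tRNA rows, in 7 anticodon groups. Alanine tRNA with anticodon AGC, written tA(AGC), had 11 rows, isoleucine tI(AAU) 13, proline tP(AGG) 2, arginine tR(ACG) 6, serine tS(AGA) 11, threonine tT(AGU) 11 and valine tV(AAC) 14. Many copies hold the same values in all 4 libraries, and rows with identical values were counted once, which left 16 sets of values. The rule used identifiers and positions only, not measured levels, although it was set with earlier results of these data known.

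Total RNA of Saccharomyces cerevisiae was sequenced after removal of ribosomal RNA. The cultures were in log phase, near an optical density of 0.8, in enriched medium. There were 2 libraries of the Asr1-RING mutant, which carries a mutation in the RING of the ubiquitin ligase Asr1, and 2 libraries of the wild type, called WT. The labels name neither the strain background nor the mutated residues. They also do not say that replicates were grown separately, so the tests measure library-to-library spread that may be technical only.

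Adenine at the first anticodon position, the wobble position, is deaminated to inosine in mature tRNA by the heterodimer of Tad2 and Tad3. Inosine can pair with U, C or A as the last base of a codon, so that 1 tRNA reads several synonymous codons. Yeast tRNA genes are transcribed by RNA polymerase III from promoter elements inside the gene, the A box and the B box. Most tRNA species are encoded by many scattered copies, and copies of the same sequence cannot be told apart by short reads.

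The gene sequences show which copies are alike. In the R64 reference annotation of RefSeq the 7 groups had the same number of genes as the table, overall and on each chromosome, and every gene had 1 exon. They fell into 10 distinct sequences, each given once below, 5′ to 3′ on the coding strand, as DNA with the anticodon in capitals. The anticodons written AAU and AGU in RNA are AAT and AGT here. Each name is that of a row tied without ambiguity to the gene by anticodon, chromosome and length.
tA(AGC)D, 11 genes alike, R64 chrIV:410379-410451, plus strand: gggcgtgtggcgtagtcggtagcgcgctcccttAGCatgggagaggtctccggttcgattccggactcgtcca
tT(AGU)B, 11 genes alike, R64 chrII:266378-266450, plus strand: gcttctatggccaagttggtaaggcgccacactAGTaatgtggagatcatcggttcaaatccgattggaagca
tR(ACG)D, 5 genes alike, R64 chrIV:619969-620041, minus strand: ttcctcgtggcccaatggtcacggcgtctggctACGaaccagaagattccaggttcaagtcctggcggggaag
tR(ACG)J, 1 gene, R64 chrX:233939-234011, plus strand: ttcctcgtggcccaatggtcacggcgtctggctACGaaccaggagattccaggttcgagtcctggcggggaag
tS(AGA)A, 10 genes alike, R64 chrI:182522-182603, minus strand: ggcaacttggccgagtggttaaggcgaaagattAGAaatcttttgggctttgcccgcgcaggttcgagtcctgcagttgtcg
tS(AGA)D3, 1 gene, R64 chrIV:1305630-1305712, plus strand: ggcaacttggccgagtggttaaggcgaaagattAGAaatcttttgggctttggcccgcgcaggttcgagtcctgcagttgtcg
tI(AAU)B, 13 genes alike, R64 chrII:197494-197567, plus strand: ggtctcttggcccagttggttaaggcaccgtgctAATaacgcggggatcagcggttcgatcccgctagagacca
tV(AAC)J, 13 genes alike, R64 chrX:378360-378433, plus strand: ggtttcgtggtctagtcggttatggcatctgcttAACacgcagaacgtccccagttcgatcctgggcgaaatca
tV(AAC)O, 1 gene, R64 chrXV:663812-663885, minus strand: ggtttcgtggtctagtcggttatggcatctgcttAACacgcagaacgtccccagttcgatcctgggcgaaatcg
tP(AGG)C, 2 genes alike, R64 chrIII:123577-123648, minus strand: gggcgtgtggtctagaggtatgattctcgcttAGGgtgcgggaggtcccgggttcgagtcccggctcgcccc

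Counted from 1 at the 5′ end of the gene, tR(ACG)J carries the substitutions A43G and A57G against the other 5 arginine genes, and tV(AAC)O carries A74G against the other 13 valine genes. The gene tS(AGA)D3 is 1 base longer than its 10 relatives, 83 against 82 bases. Between groups of equal length, position by position without gaps, the isoleucine and valine genes shared 60.8% of bases, the alanine and threonine genes 56.2%, the arginine and threonine genes 49.3% and the alanine and arginine genes 43.8%. The letters GGTTCGA with CC after a gap of 2 bases, a form of the B box, stood in 38 of the 68 genes (55.9%), against 127 of all 275 nuclear tRNA genes (46.2%), always on the coding strand. All alanine, isoleucine, proline and serine genes held these letters, as did tR(ACG)J alone among the 6 arginine genes, while 0 of 11 threonine and 0 of 14 valine genes did. The letters TGGC with AGTGG after a gap of 2 bases, a form of the A box, stood in the 11 serine genes and in none of the other 57, against 40 of 275 nuclear tRNA genes (14.5%). A match is a description of letters, and its absence says nothing of transcription factor binding.

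The whole table gives the setting for these values. The summed FPKM, fragments scaled to row length and library size, was 3742848 and 3777252 in the Asr1-RING libraries and 5369809 and 4870207 in the WT libraries, with median rows of 21.4 and 21.7 against 21.2 and 19.9 FPKM. ASR1 itself (YPR093C) had 4.99 and 5.39 FPKM in Asr1-RING and 7.05 and 6.34 FPKM in WT, and a value per gene cannot show a change inside its coding sequence. FPKM is relative to all mapped fragments, so a lower value does not say how many molecules a cell held.

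Adenine-first tRNAs were lower in the Asr1-RING libraries in every group. In each of the 16 sets both Asr1-RING values lay below both WT values, as they did in 27.2% of all tested rows and 83.8% of the other nuclear tRNA rows. The test was limma's moderated one on log2(FPKM + 1), adjusted by Benjamini-Hochberg over the 6892 rows whose mean reached 1 FPKM. At an adjusted p under 0.05, 15 of 16 sets (93.8%) fell and 0 rose, and over all tested rows 4.95% were called lower and 1.89% higher. Without WT replicate 1 the number of sets called lower was 8 (2.86% of all rows), and without WT replicate 2 it was 7 (3.8% of all rows). All 68 rows passed the filter on low values, and 67 of them (98.5%) were called lower. The median log2 difference of the 16 sets was -1.38, against 0.02 for all tested rows and 0.03 for protein-coding rows, of which 0.921% were called lower and 1.95% higher.

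The decline was shared with other tRNAs. Some other non-coding rows were lower as well, though these did not pass by limma. RDN5-1 and RDN5-6, of 5S ribosomal RNA, had a log2 difference of -0.80 (SE 0.177, adjusted p = 0.0568). The 5S rows RDN5-2 to RDN5-5 also had -0.80 (SE 0.246, adjusted p = 0.113). NME1 had -0.54 (adjusted p = 0.0608) and RPR1 -0.41 (adjusted p = 0.118). RDN58-1 had -1.06 (SE 0.366, adjusted p = 0.143) and RDN58-2 -0.98 (SE 0.324, adjusted p = 0.132). RDN18-1 and RDN18-2 had -0.48, RDN25-1 -0.48, RDN25-2 -0.47, RDN37-1 -0.38 and RDN37-2 -0.39 (adjusted p from 0.239 to 0.336). HRA1 was not lower, at 0.04 (SE 0.0899, adjusted p = 0.825). LSR1 had 6.27 (adjusted p = 0.385), but its SE of 4.21 is too wide to give a direction. The rows named are examples, not all non-coding rows. Whether the decline extends to short RNAs as a class was not tested. Of the 198 other nuclear tRNA rows tested, 1 of them with no anticodon in its identifier, 159 (80.3%) were called lower and 1.52% higher, with a median log2 difference of -1.47. With identical values counted once, 55 of 72 such sets (76.4%) were called lower, with a median of -1.45. The share called lower was 54 of 73 rows (74%) for anticodons starting with G, 64 of 80 (80%) for U and 40 of 44 (90.9%) for C. The median of the adenine-first sets was thus no further from 0 than that of the others. The 68 rows together held 15.9% and 15.8% of the nuclear tRNA FPKM in Asr1-RING and 15.7% and 16.4% in WT. The difference of -0.226 percentage points lay within the spread of the WT libraries (exact permutation test, two-sided, p = 1, where 2 against 2 libraries cannot give less than 0.33). With identical rows counted once the share was 13.7% and 14.3% in Asr1-RING and 12.1% and 13.3% in WT, a difference of 1.32 points of the other sign (exact permutation p = 0.33). As a share of all FPKM the 68 rows held 0.688% and 0.755% in Asr1-RING and 1.49% in each WT library.

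**Figure D1:**
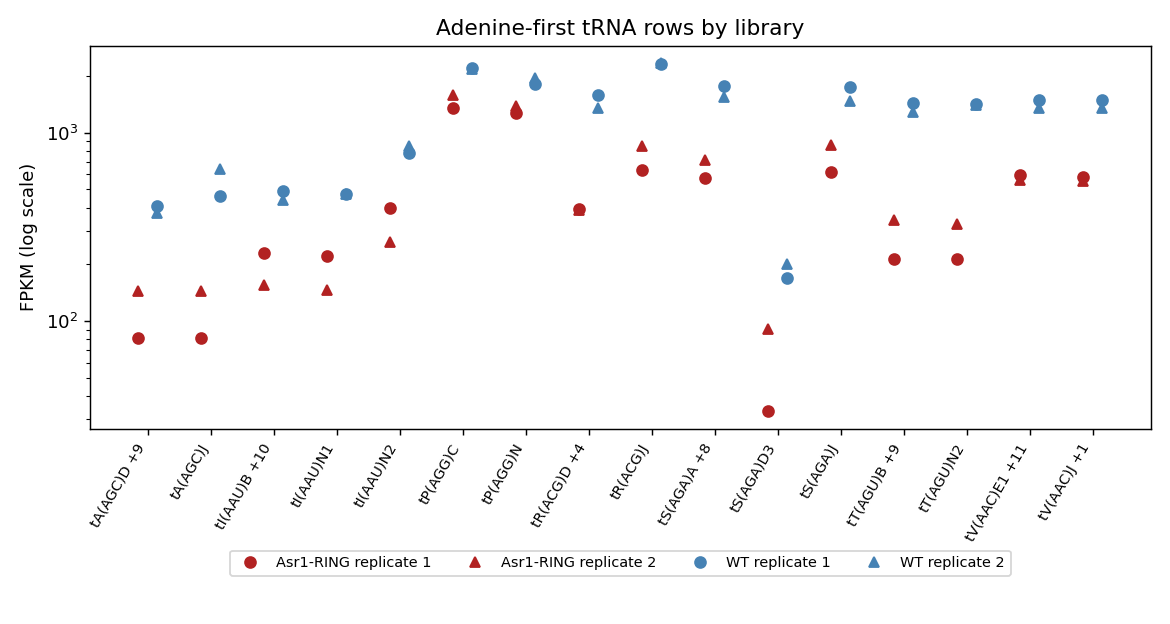
FPKM of the 16 sets of adenine-first tRNA values (log axis), with 1 symbol per library, Asr1-RING in red and WT in blue; a plus sign and number after a name give the further rows that hold the same values. In each set the 2 red symbols sit below the 2 blue ones, with a narrow gap for the proline rows and serine values that are lowest at tS(AGA)D3.

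Threonine tRNA with anticodon AGU, which serves the codons ACU and ACC, had some of the widest differences. The 10 identical rows led by tT(AGU)B (sacCer2 chrII:266378-266450) had 213.5 and 344.8 FPKM in Asr1-RING and 1437 and 1288 FPKM in WT. The means differed 4.88-fold, and the log2 difference was -2.32 (SE 0.226, adjusted p = 0.00363 by limma). The remaining copy, tT(AGU)N2 on chromosome XIV, had 213.5 and 326.5 FPKM in Asr1-RING and 1425 and 1395 FPKM in WT, a log2 difference of -2.41 (SE 0.2, adjusted p = 0.0025). Its sequence equals that of the others, so reads within the gene cannot tell it apart from them.

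The alanine copies followed. The 10 rows led by tA(AGC)D (sacCer2 chrIV:410377-410449) had 80.8 and 143.9 FPKM in Asr1-RING and 409.3 and 376.1 FPKM in WT. Their means differed 3.50-fold, with a log2 difference of -1.85 (SE 0.261, adjusted p = 0.0139). The copy tA(AGC)J had the same 80.8 and 143.9 FPKM in Asr1-RING but 461.1 and 643.0 FPKM in WT, so its log2 difference of -2.33 (SE 0.295, adjusted p = 0.00931) exceeded that of the other copies through WT alone. The alanine calls did not survive every omission of a library: the adjusted p without WT replicate 2 was 0.0664 for the 10 copies and 0.0517 for tA(AGC)J, and that of the 10 copies without WT replicate 1 was 0.097.

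Arginine tRNA with anticodon ACG offered a comparison between distinguishable genes, since tR(ACG)J differs from the rest at 2 bases. The 5 identical rows led by tR(ACG)D (sacCer2 chrIV:619967-620039) had 393.5 and 389.6 FPKM in Asr1-RING and 1591 and 1348 FPKM in WT, a 3.75-fold difference of means. Their log2 difference was -1.90 (SE 0.112, adjusted p = 0.0015). The gene tR(ACG)J (sacCer2 chrX:233934-234006) was higher than its relatives in each library, at 634.7 and 852.2 FPKM in Asr1-RING and 2306 and 2335 FPKM in WT. It fell by 1.66 on the log2 scale (SE 0.153, adjusted p = 0.00335), so both arginine sequences fell, and the difference between their changes was not tested.

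Serine tRNA with anticodon AGA was represented by 3 sets. The 9 rows led by tS(AGA)A (sacCer2 chrI:182516-182597) had 575.4 and 718.4 FPKM in Asr1-RING and 1774 and 1548 FPKM in WT, with a log2 difference of -1.36 (SE 0.141, adjusted p = 0.00399). The copy tS(AGA)J, of the same sequence, had 614.9 and 860.5 FPKM in Asr1-RING and 1738 and 1468 FPKM in WT, with a log2 difference of -1.13 (SE 0.182, adjusted p = 0.0219). The longer gene tS(AGA)D3 (sacCer2 chrIV:1305623-1305705) lay below the other serine sets in each library, at 33.2 and 90.3 FPKM in Asr1-RING and 168.9 and 201.7 FPKM in WT. It was also the one set that did not pass (log2 difference -1.73, SE 0.435, adjusted p = 0.075), and its Asr1-RING libraries differed from each other more than those of any other set on the log scale. The tS(AGA)J call was lost with either WT library left out (adjusted p = 0.144 without replicate 1 and 0.0664 without replicate 2), whereas that of the 9 rows was kept with any library left out.

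Valine tRNA with anticodon AAC varied little between replicates. The 12 rows led by tV(AAC)E1 had 594.4 and 562.1 FPKM in Asr1-RING and 1487 and 1353 FPKM in WT, a log2 difference of -1.29 (SE 0.0987, adjusted p = 0.00184). The genes tV(AAC)J and tV(AAC)O shared values of 584.7 and 552.8 FPKM in Asr1-RING and 1487 and 1348 FPKM in WT, a log2 difference of -1.31 (SE 0.0994, adjusted p = 0.00184). The last-base substitution of tV(AAC)O thus did not separate its values from those of tV(AAC)J.

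Isoleucine tRNA with anticodon AAU was nearly the whole of the isoleucine tRNA FPKM, at 98.3% to 100% of it in each library. Its partner tI(UAU) had 115.3 FPKM in WT replicate 1 and was listed at 0 in the other libraries. A listed 0 does not show that a tRNA was absent from the cells. All 6 rows of tryptophan tW(CCA) also stood at 0 in each library. The 11 rows led by tI(AAU)B (sacCer2 chrII:197497-197570) had 230.1 and 156.0 FPKM in Asr1-RING and 491.5 and 439.7 FPKM in WT, with a log2 difference of -1.29 (SE 0.192, adjusted p = 0.0162). The copy tI(AAU)N1 had 220.4 and 146.7 FPKM in Asr1-RING and 473.8 and 470.5 FPKM in WT, a log2 difference of -1.39 (SE 0.193, adjusted p = 0.0137). The copy tI(AAU)N2, of the same sequence, stood higher, at 396.5 and 263.9 FPKM in Asr1-RING and 778.7 and 849.1 FPKM in WT (log2 difference -1.33, SE 0.197, adjusted p = 0.0162). It lies inside the open reading frame YNL017C (sacCer2 chrXIV:602140-602478), whose own row had 3.40 and 4.54 FPKM in Asr1-RING and 7.75 and 7.07 FPKM in WT. Whether strand was used in counting is not stated, so reads of the 2 features may be mixed. With WT replicate 1 left out all 3 isoleucine calls were lost, with adjusted p = 0.124 for the 11 rows, 0.0952 for tI(AAU)N1 and 0.091 for tI(AAU)N2, and with WT replicate 2 left out likewise, with 0.0705, 0.0755 and 0.1 in that order.

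Proline tRNA with anticodon AGG had the smallest differences. Its 2 genes are SUF2 and SUF10, known as sites of frameshift suppressor mutations. SUF2, row tP(AGG)C (sacCer2 chrIII:123575-123646), had 1347 and 1590 FPKM in Asr1-RING and 2196 and 2179 FPKM in WT, and its log2 difference was -0.58 (SE 0.113, adjusted p = 0.0413). SUF10, row tP(AGG)N (sacCer2 chrXIV:631849-631920), had 1278 and 1392 FPKM in Asr1-RING and 1820 and 1961 FPKM in WT, and its log2 difference was -0.50 (SE 0.1, adjusted p = 0.0437). The means differed 1.49-fold and 1.42-fold. Both calls stood close to the threshold and were lost without WT replicate 1 (adjusted p = 0.239 for SUF2 and 0.174 for SUF10) or WT replicate 2 (adjusted p = 0.19 and 0.230), and that of SUF10 also without Asr1-RING replicate 1 (adjusted p = 0.054). After quantile normalization the differences were -0.05 for SUF2 and -0.02 for SUF10.

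**Figure D2:**
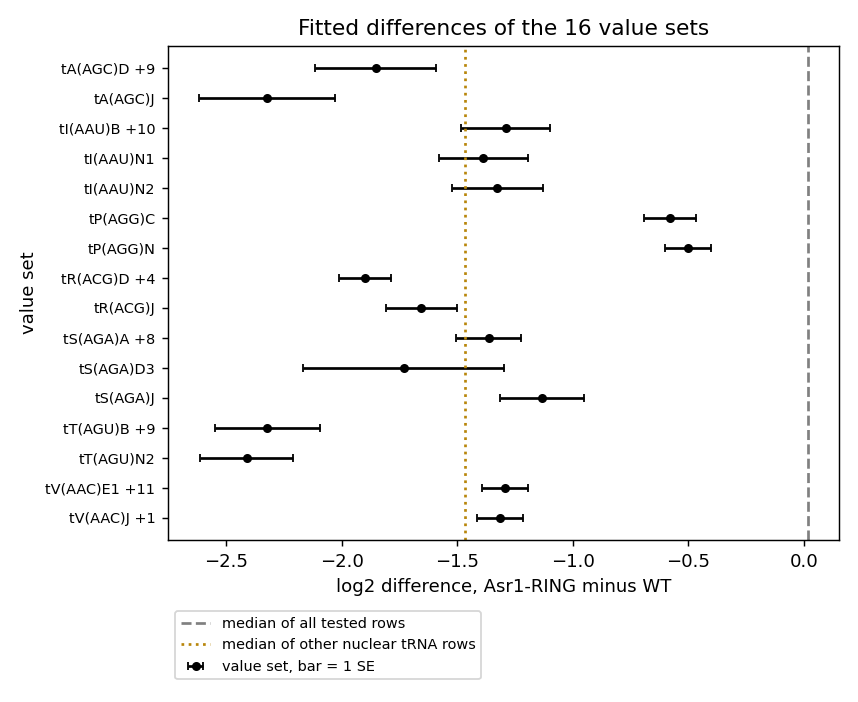
Fitted log2 difference, Asr1-RING minus WT, of each set (points, bars 1 SE), with the medians of all tested rows (dashed, 0.02) and of the other nuclear tRNA rows (dotted, -1.47). The sets run from -2.41 for tT(AGU)N2 to -0.50 for tP(AGG)N, and the proline sets lie nearest to 0.

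Since copies of 1 sequence share reads, group totals were also tested, in a fit in which each nuclear tRNA anticodon was 1 row, where 1.83% of 6667 rows were called lower. All 7 adenine-first totals fell, as did 25 of the 34 other totals (73.5%), counting the row with no named anticodon as 1. The log2 differences of the totals were -2.33 for tT(AGU) (SE 0.216, limma adjusted p = 0.00554), -1.92 for tA(AGC) (SE 0.250, adjusted p = 0.0188) and -1.84 for tR(ACG) (SE 0.104, adjusted p = 0.00141). Smaller differences were found for tS(AGA) at -1.34 (SE 0.144, adjusted p = 0.00983), tI(AAU) at -1.31 (SE 0.184, adjusted p = 0.0249) and tV(AAC) at -1.30 (SE 0.101, adjusted p = 0.00299). The proline total had -0.54 (SE 0.0999, adjusted p = 0.0482). After quantile normalization the calls of the isoleucine and proline totals were lost (limma adjusted p = 0.0748 and 0.0845). The other totals kept theirs, that of serine barely (adjusted p = 0.04995). With 1 library left out, the totals of the arginine, serine, threonine and valine groups kept their calls, with adjusted p-values of at most 0.0356. Without WT replicate 1 the calls of the alanine, isoleucine and proline totals were lost (adjusted p = 0.0755, 0.0964 and 0.21). With WT replicate 2 left out, those of isoleucine and proline were lost (adjusted p = 0.0516 and 0.2).

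The deposited values also bear a trace of the counting behind each group. Within a library the anticodon totals of rows of equal length were mostly whole multiples of 1 step, within 0.05 of a whole number. The step was picked as the value that made the most totals whole, so the counts of whole totals are no separate test of it. For rows of 72 bp the step was 69.1 and 66.3 FPKM in Asr1-RING and 62.7 and 72.6 FPKM in WT, and 12 and 11 of 13 totals in Asr1-RING and 8 and 11 of 13 in WT were whole. The step shrank with length, to 32.9 and 31.6 FPKM in Asr1-RING and 29.9 and 34.6 FPKM in WT at 82 bp. Only 2 totals were used at 82 bp. FPKM levels of groups of different length therefore do not compare as numbers of steps. The shares of tRNA FPKM given here sum rows of different length, so a step in a shorter row weighs more in them. A step may stand for 1 fragment, although a finer one would also give whole totals.

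In these steps the alanine total rested on 14 and 26 in Asr1-RING and 79 and 66 in WT. If a step is 1 fragment, the 95% Poisson interval of the lowest of these was 7.65 to 23.5, which covers counting error only. The proline total held 38 and 45 steps in Asr1-RING and 64 and 57 in WT. The arginine total held 41 and 46 steps in Asr1-RING and 178 and 136 in WT. Here tR(ACG)J alone, whose sequence is its own, held 10 and 14 steps in Asr1-RING and 40 and 35 in WT, whole numbers in every library. The threonine total held 37 and 62 steps in Asr1-RING and 274 and 214 in WT, and the valine total 142 and 140 in Asr1-RING and 392 and 308 in WT. For isoleucine the quotients were not whole in any library, at 53.8 and 37.9 in Asr1-RING and 125.4 and 100.2 in WT. The 10 serine rows of 82 bp, not whole in every library, gave 175.9 and 232.0 in Asr1-RING and 592.0 and 444.8 in WT. No step was fitted for the 83 bp row tS(AGA)D3. Its 33.2 FPKM in Asr1-RING replicate 1 was close to the 82 bp step of 32.9 FPKM there. The level and difference of tS(AGA)D3 may thus rest on very few steps. Small differences between copies of 1 sequence correspond to few steps. The excess of tA(AGC)J over its copies was 0.9 and 4 steps in WT replicates 1 and 2, and that of SUF2 over SUF10 was 1 and 3 steps in Asr1-RING and 6 and 3 in WT.

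**Figure D3:**
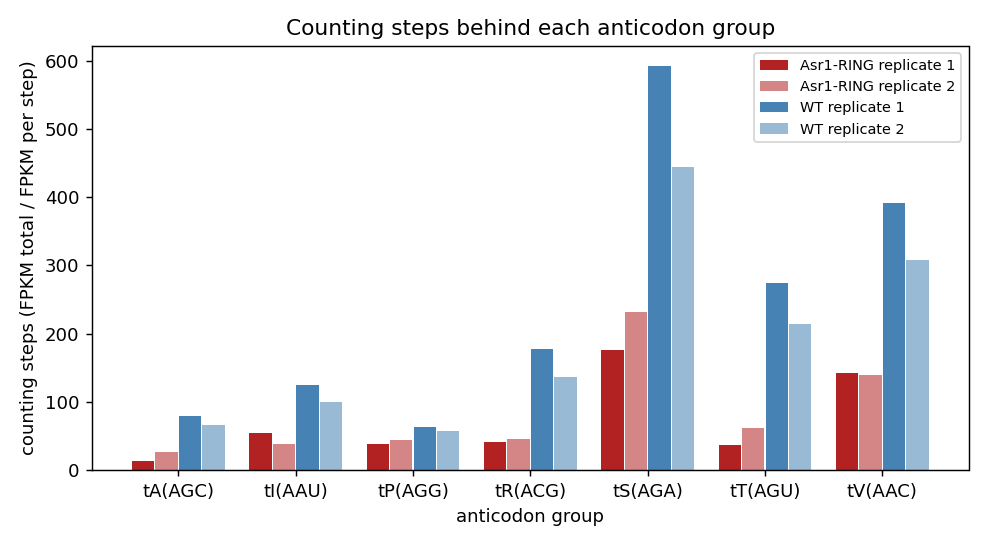
Counting steps behind each anticodon group (FPKM total divided by the FPKM of 1 step), 1 bar per library, Asr1-RING in red shades and WT in blue shades; the serine group leaves out tS(AGA)D3. Asr1-RING bars are lower in each group, from 14 and 26 against 79 and 66 for alanine to 38 and 45 against 64 and 57 for proline.

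Set against the tRNAs of the same amino acid with another anticodon, threonine was the amino acid with the widest shift. The AGU tRNA made up 31.3% and 44.0% of threonine tRNA FPKM in Asr1-RING and 61.2% and 65.6% in WT. The groups did not overlap, and the exact permutation p of 0.33 is the smallest that 2 against 2 libraries allow (0.778 after adjustment over 7 amino acids). Beside it, tT(UGU), which reads the codon ACA, had a total of 5143 and 4612 FPKM in Asr1-RING and 9462 and 6986 FPKM in WT, a log2 difference of -0.74 that did not pass (limma adjusted p = 0.0624). The single row of tT(CGU) was listed at 0 and 198.8 FPKM in Asr1-RING and at 564.7 and 508.5 FPKM in WT.

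Alanine went the other way by less: the AGC tRNA held 51.9% and 59.1% in Asr1-RING and 50.6% and 48.2% in WT, and its partner tA(UGC) fell by 2.27 on the log2 scale (adjusted p = 0.00175). Serine AGA held 73.1% and 74.8% in Asr1-RING and 75.6% and 78.6% in WT. Both gave an exact permutation p of 0.33 (0.778 adjusted), the smallest possible. Shares overlapped between the groups for proline, at 67.3% and 65.2% in Asr1-RING and 59.9% and 73.1% in WT, for arginine, at 17.1% and 14.1% in Asr1-RING and 14.4% and 16.3% in WT, and for valine, at 66.5% and 64.6% in Asr1-RING and 65.3% and 63.5% in WT. The partner of the proline group, tP(UGG), had a log2 difference of -0.51 that did not pass (adjusted p = 0.276). All 3 arginine partners fell, with log2 differences of -1.90 for tR(UCU), -1.16 for tR(CCG) and -2.79 for tR(CCU). Both valine partners fell, with -1.53 for tV(CAC) and -1.2 for tV(UAC), as did the serine partner tS(UGA) with -1.19. The remaining serine partners and the isoleucine partner did not pass. Of these tS(GCU) had 0.11, and tS(CGA) and tI(UAU) were listed at 0 in at least 1 library.

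**Figure D4:**
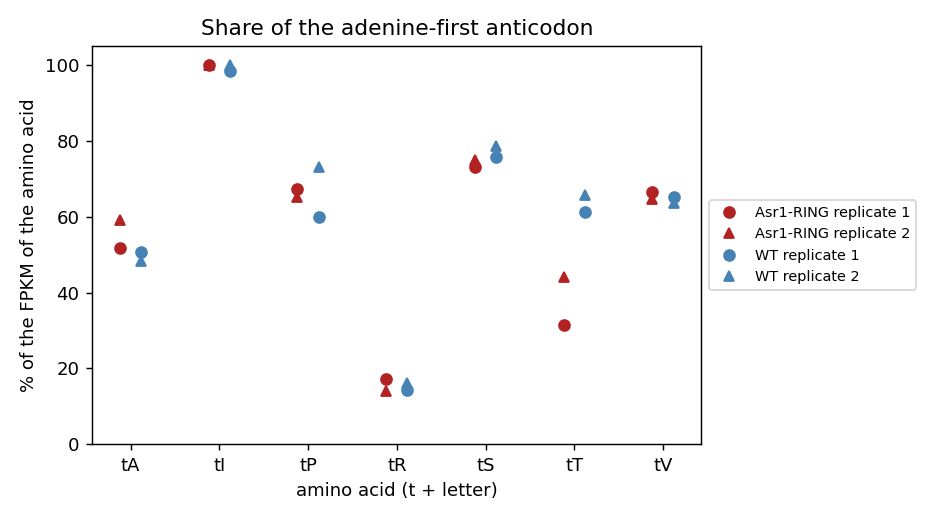
Share of the adenine-first anticodon in the FPKM of all nuclear tRNAs of its amino acid (percent), 1 symbol per library, Asr1-RING in red left of WT in blue, with amino acids named by t and their letter. Threonine (tT) stands apart, at 31.3% and 44.0% in Asr1-RING against 61.2% and 65.6% in WT.

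A further fit took each anticodon as a share of the nuclear tRNA FPKM of its library, which sets aside the common decline. It covered 41 totals, of which 19.5% were called in either direction, and it pooled the spread over all of them. Of the 7 adenine-first anticodons, tT(AGU) had a lower share. Its log2 difference was -0.86 (SE 0.211, adjusted p = 0.00431 by limma). It held 1.45% and 2.09% of nuclear tRNA FPKM in Asr1-RING and 3.10% and 3.24% in WT. The share of tP(AGG) was higher, at 1.62% and 1.65% in Asr1-RING and 0.787% and 0.938% in WT (log2 difference 0.92, SE 0.251, adjusted p = 0.00893). Each call was lost with any of 3 libraries left out. For tT(AGU) the adjusted p was 0.104 without Asr1-RING replicate 1, 0.368 without the first WT library and 0.358 without the other. For tP(AGG) it was 0.104, 0.294 and 0.199 in the same order. The other 5 shares did not pass, at -0.44 for tA(AGC), -0.36 for tR(ACG), 0.13 for tS(AGA), 0.16 for tI(AAU) and 0.17 for tV(AAC). Among anticodons of the same amino acids, tT(UGU) and tP(UGG) were called with higher shares, by 0.73 (adjusted p = 0.011) and 0.95 (adjusted p = 0.0111). Called with lower shares were tA(UGC), at -0.79 (adjusted p = 0.0295), tR(UCU), at -0.42 (adjusted p = 0.0109), and tT(CGU), at -1.83 (adjusted p = 0.0295), a value that depends on the pseudocount since 1 library is at 0.

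The messenger RNAs of the deaminases did not pass the test. TAD2, the catalytic subunit of the wobble deaminase, had 16.9 and 15.7 FPKM in Asr1-RING and 17.8 and 18.5 FPKM in WT (log2 difference -0.15, SE 0.0965, limma adjusted p = 0.368). TAD3, its partner subunit, had 10.5 and 11.0 FPKM in Asr1-RING and 12.0 and 11.9 FPKM in WT (log2 difference -0.14, SE 0.0967, adjusted p = 0.395). TAD1, which deaminates the adenine next to the anticodon of alanine tRNA, had 9.52 and 9.07 FPKM in Asr1-RING and 10.1 and 9.84 FPKM in WT (log2 difference -0.09, SE 0.0987, adjusted p = 0.592). An unadjusted p under 0.05 was reached by 0 of 3. The values are levels of mRNA, and inosine itself is not measured by them.

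Genes that charge, make, mature and degrade tRNA were examined as lists, beside a background of 4.95% lower and 1.89% higher calls over all rows. An unadjusted p under 0.05 was found in 26.4% of all rows, in either direction. Without Asr1-RING replicate 1 the background was 8.02% lower and 11.3% higher. Of the cytosolic synthetases of the 7 amino acids 0 of 7 passed, although the unadjusted p was under 0.05 for 5 of them. The list's median log2 difference was 0.31, and without Asr1-RING replicate 1, 3 were called higher. The widest was the arginyl-tRNA synthetase gene YDR341C, at 145.2 and 187.5 FPKM in Asr1-RING and 105.8 and 110.2 FPKM in WT (log2 difference 0.61, SE 0.140, adjusted p = 0.0614). The threonyl enzyme THS1 (YIL078W) had a difference of 0.33 (adjusted p = 0.0869), the valyl enzyme VAS1 (YGR094W) 0.33 (adjusted p = 0.104) and the alanyl enzyme ALA1 (YOR335C) 0.31 (adjusted p = 0.108). The prolyl enzyme gene YHR020W had 0.25 (adjusted p = 0.163), the isoleucyl enzyme ILS1 (YBL076C) 0.21 (adjusted p = 0.2) and the seryl enzyme SES1 (YDR023W) -0.04 (adjusted p = 0.807).

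Of 20 subunits and factors of RNA polymerase III, 0 passed, 2 had an unadjusted p under 0.05, and the differences ran from -0.40 to 0.34 with a median of -0.01. Without Asr1-RING replicate 1, 2 of 20 were called higher and 1 lower, shares no higher than those of all rows in that setting. Of 7 genes of end maturation and export 3 had an unadjusted p under 0.05. Among them MSN5 had a log2 difference of 0.42 that did not pass (SE 0.095, limma adjusted p = 0.0608). In the list 1 gene fell. This was RPR2, a protein subunit of RNase P, which trims the 5′ end of precursor tRNA, at 7.06 and 6.11 FPKM in Asr1-RING and 11.3 and 10.1 FPKM in WT (log2 difference -0.63, SE 0.12, adjusted p = 0.0394). With either WT library or Asr1-RING replicate 2 left out, 0 were called lower, and without Asr1-RING replicate 1 a further gene was called, so that 1 was higher. Of 6 genes of rapid tRNA decay and the modifications that protect from it, 0 passed and 1 had an unadjusted p under 0.05, while 2 were called higher without Asr1-RING replicate 1. MET22, whose loss is known to slow that decay, had 39.2 and 46.9 FPKM in Asr1-RING and 29.1 and 29.5 FPKM in WT (log2 difference 0.53, SE 0.115, adjusted p = 0.0541).

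Few rows outside the groups coincided with a member. SUF2 and the rows tT(UGU)G1 and tT(UGU)G2 on chromosome VII had the same 1590 FPKM in Asr1-RING replicate 2 and different values in the other libraries. SUF10 and tR(CCG)L had the same 1820 FPKM in WT replicate 1. All of these are rows of 72 bp, for which equal numbers of steps give equal FPKM.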

How the data were processed

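The authors deposited 1 table with an FPKM value per row and library. The submitters' processing notes name TopHat2, Cufflinks and the build sacCer2. Versions, settings and the treatment of strand and of reads with several matches are not stated. Per the labels' protocols, total RNA was extracted with hot acid phenol and depleted of ribosomal RNA. Groups and replicate numbers came from sample titles. A count model was not applied, since FPKM is not a count.

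Values were analysed as log2(FPKM + 1) for the 6892 rows whose mean reached 1 FPKM. The test was limma's, moderated along the intensity trend (residual df 2, prior df 3.71), with p-values adjusted by Benjamini-Hochberg over these rows and a threshold of 0.05. Log2 differences are Asr1-RING minus WT, and folds are ratios of mean FPKM. Table starts were counted from 0 and were raised by 1. After that 6462 of 6685 open reading frame rows had a length that is a multiple of 3. Every set of distinct values was named. Coordinates marked R64 come from the RefSeq annotation and were not converted. Members and lists were chosen with earlier results of these data known. The fits on anticodon totals and shares (pseudocount of 0.01 percent), the counting steps and the A box and B box letters were added after the data were seen. For the steps, the ranges searched were set after looking at the values. Depth per library is known only relative to these steps. On simulated data shaped on the Asr1-RING against WT comparison (6892 rows), limma found 66.8% of 1.5-fold changes, 97.6% of 2-fold ones and 100% of 4-fold ones, and 2.79% of its calls were false. The simulated rows varied independently, without the identical rows of the table or differences shared across a library. These figures may therefore not hold for the real rows. Alternatives were other pseudocounts, filters, scalings and moderation, a replicate block, identical rows entered once and each library left out. Python 3.11.15 (pandas 2.3.3, numpy 2.4.6, scipy 1.17.1, matplotlib 3.10.9), R 4.3.3 and limma 3.58.1 were used.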

Additional observations from a re-analysis of the deposited data

How the results depend on the processing

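All 16 sets kept their direction in each of the 14 alternatives, and 7 of the 15 called sets kept their call in all of them: those of arginine, threonine and valine, and the 9 serine rows led by tS(AGA)A. The number of sets called lower was 7 with no filter on low values and 7 to 16 with 1 library left out (8 without WT replicate 1, 7 without WT replicate 2), and that of rows was 40 with no filter and 40 to 68 with 1 library left out. The cause of the loss with no filter was not tested, and leaving out a library leaves 1 in its group, assumed to vary like the other group. Quantile normalization left 10 sets, no trend 13 and robust moderation 14. With identical rows entered once, 15 sets were called although the calls over all rows fell to 176 lower and 95 higher. The number of all rows called, 130 higher and 341 lower as reported, was 21 and 182 with no filter, 70 and 447 after median centring, 307 and 316 after quantile normalization, and 781 and 553 without Asr1-RING replicate 1. The share of nuclear tRNA FPKM changed sign without WT replicate 2 (0.161 points, with a range of -0.613 to 0.161 over omitted libraries) and with identical rows counted once (1.32 points). The share fit for tI(AAU) changed sign without Asr1-RING replicate 1 (-0.19, with 0.52 as the highest value over omitted libraries). Synthetases called higher numbered 1 with a minimum mean of 10 FPKM, robust moderation or the replicate block, 3 after quantile normalization, and 0 to 3 with a library left out. Decay genes called higher numbered 1 with the same minimum, robust moderation or the block, and 0 to 2 with a library left out. Maturation genes called lower numbered 0 with no filter, 0 with the higher minimum and 0 to 1 with a library left out, and called higher 0 to 1. RNA polymerase III factors called higher numbered 0 to 2, and lower 0 to 1, with a library left out. The replicate block called 16 of 16 sets and 68 rows. Whether the replicate numbers pair the samples is not known. The correlation of replicate deviations over rows was -0.0712, which cannot settle it with 2 libraries per group. Under the block 237 rows rose and 381 fell in all, against 130 and 341 without it. Widening the members by standard names added no row. A fit centred on the other tRNA rows, tried after the data were seen, called 97.2% of all rows and was not used.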

Other observations

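One further row, tR(ACG)Q2, carries an adenine-first anticodon in its identifier but lies on the mitochondrial chromosome and was therefore outside the 68. It was listed at 0 FPKM in all 4 libraries.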
